A study of Mus musculus with 43 samples.

Results

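The 9 genes described here are Mbp, Mobp, Mog, Mag, Cnp, Mal, Cldn11, Bcas1 and Ermn, a set of myelin and oligodendrocyte genes of the mouse. They were taken by symbol from the 54532 genes of the read count table. They were chosen by measured values, after Mbp, Mobp and other genes of this kind had stood out between male and female control retinas at 7 days post-laser (dpl), so that comparison is given below as a description, without a test. All 9 were among the 18197 genes that passed the low-count filter. Bcas1 and Mag passed it only with the libraries in which they were high.

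The libraries came from retinas of C57BL/6J mice lasered at 9 weeks of age to induce choroidal neovascularization (CNV), the growth of choroidal vessels into the retina. Control mice received the laser lesion alone, and short-chain fatty acid (SCFA) mice also drank 67.5 mM sodium acetate, 40 mM sodium propionate and 25 mM sodium butyrate from before the lesion until collection. Every library was a pool of 2 lasered retinas of 2 mice. Males and females were collected at 3, 7 and 14 dpl, which gave 12 groups of 3 to 5 libraries and 43 libraries in all (21 male, 22 female; 19 control, 24 SCFA), with no unlasered group.

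Oligodendrocytes wrap axons of the central nervous system in myelin. In the mouse, the axons of retinal ganglion cells run unmyelinated through the retina and the optic nerve head, and their myelin begins behind the lamina region of the optic nerve. The optic nerve behind that region is rich in transcripts of mature oligodendrocytes. The question addressed was whether these genes moved together from library to library, and whether they followed treatment, day or neither.

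In 38 of the 43 libraries Mobp, a protein of compact myelin, lay between 0 and 1.58 CPM (read counts scaled by library size). In the other 5 it lay at 6.02, 13.4, 40.2, 93.6 and 145 CPM, and Mbp, Mog, Mag and Bcas1 were also higher in each of those 5 than in any of the 38. The split was made on Mobp, and the share of all genes that follow it is not given here. The 5 libraries were male control 7 dpl replicates 2 and 3, male SCFA 7 dpl replicates 2 and 3, and female SCFA 3 dpl replicate 3. They came from 3 of the 12 groups and from both treatments, and in each of those groups at least 1 library stayed in the range of the 38. By edgeR, none of the 9 genes was called different between SCFA and control, between days or between sexes in any of the 11 comparisons tested.

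The libraries held 14826957 to 21507527 counts, and 3 counts, taken here as the limit of detection, came to 0.134 to 0.246 CPM. The tissue label was borne out by rod genes, with Sag (arrestin) at 5240 to 10456 CPM and Gnat1 (rod transducin) at 11961 to 24058 CPM. The library labelled female control 7 dpl replicate 2 held both Xist (97.1 CPM) and 4 Y-linked genes (4.20 to 16.0 CPM), and the other 21 female libraries had no count of those Y-linked genes. The count table listed the libraries in a run of 31 columns followed by a run of 12, and all 5 libraries with high Mobp stood in the first run. Whether the runs differ in anything but order was not stated. The 8 lens genes summed to 254955 CPM in female SCFA 3 dpl replicate 2, against a median of 112 CPM, and that library had the lowest scaling factor (0.703). CPM values below are scaled by these factors.

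Mbp encodes myelin basic protein, which holds the cytoplasmic faces of the myelin membrane together. Its locus on chromosome 18 (GRCm38, 82475146 to 82585637, plus strand) also makes Golli transcripts, which are used outside myelin, and the counts do not separate the 2 kinds. In the 38 libraries Mbp lay at 14.3 to 29.8 CPM with a median of 19.6 CPM. It reached 501 CPM in male control 7 dpl replicate 3, 350.0 CPM in male SCFA 7 dpl replicate 2 and 149 CPM in male control 7 dpl replicate 2. Female SCFA 3 dpl replicate 3 had 67.8 CPM and male SCFA 7 dpl replicate 3 had 45.8 CPM. Thus 38 libraries shared a narrow band (coefficient of variation 16.4%) and 5 stood above it.

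Mobp (chromosome 9, 120149707 to 120181484, plus strand) encodes myelin-associated oligodendrocyte basic protein and showed the widest contrast. Of the 43 libraries 25 held 3 counts or fewer and 3 held none, while male control 7 dpl replicate 3 held 2731. The exons of Mobp overlap those of Gm38642 on the same strand, so reads there could have been counted for either or neither. The 5 high libraries did not overlap the others, whose highest was female SCFA 14 dpl replicate 1.

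Mog and Mag encode proteins of the outer and the inner myelin surface, respectively. Mog (chromosome 17, 37010743 to 37023398, minus strand) lay at 0 to 0.810 CPM in the 38 libraries. It reached 6.87 and 5.66 CPM in male control 7 dpl replicate 3 and male SCFA 7 dpl replicate 2, and 1.58, 1.11 and 0.886 CPM in the other 3 high libraries. Mag (chromosome 7, 30899176 to 30914873, minus strand), a receptor that faces the axon, lay at 0 to 0.563 CPM in the 38. In male control 7 dpl replicate 3 it was at 12.5 CPM, in male SCFA 7 dpl replicate 2 at 8.83 CPM and in male control 7 dpl replicate 2 at 3.39 CPM. The remaining high libraries had 1.20 and 0.830 CPM of Mag. For both genes the 5 libraries and the 38 did not overlap, but the gap was small at the lower end, where Mog differed by 0.886 against 0.810 CPM.

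Cldn11 (chromosome 3, 31149920 to 31164324, plus strand) encodes the claudin of the tight junctions of myelin. It was at 16.0 CPM in male control 7 dpl replicate 3, 11.3 CPM in male SCFA 7 dpl replicate 2 and 3.61 CPM in male control 7 dpl replicate 2, against at most 0.8996 CPM in the 38. Male SCFA 7 dpl replicate 3 (1.24 CPM) was above the 38 and female SCFA 3 dpl replicate 3 (0.886 CPM) was not. Bcas1 (chromosome 2, 170346991 to 170427845, minus strand), which marks newly forming oligodendrocytes, had no count in 16 libraries and 3 or fewer in 30. It reached 23.3, 17.0, 6.78, 2.79 and 0.692 CPM in the 5 libraries, and at most 0.574 CPM elsewhere. Bcas1 shares exonic bases with Bcas1os1 and Bcas1os2 on the opposite strand, and the strand setting of the counting is not given in the sources used here.

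The other 3 genes were present in every library. Cnp, a phosphodiesterase of the uncompacted parts of myelin (chromosome 11, 100574904 to 100591729, plus strand), lay at 14.97 to 41.2 CPM in the 38 libraries. Male SCFA 7 dpl replicate 3 (45.6 CPM), male control 7 dpl replicate 3 (43.5 CPM) and male SCFA 7 dpl replicate 2 (42.6 CPM) were just above that range. Male control 7 dpl replicate 2 had 22.9 CPM of Cnp, near the median of 21.1 CPM over all libraries. Cnp shares exonic bases with Dnajc7 on the opposite strand.

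Mal (chromosome 2, 127633226 to 127656695, minus strand), a proteolipid of myelin and other membranes, lay at 5.55 to 22.4 CPM in the 38 libraries. Only male control 7 dpl replicate 3 (30.0 CPM) and male SCFA 7 dpl replicate 2 (22.7 CPM) were above that range, the latter narrowly. Ermn (chromosome 2, 58045113 to 58052864, minus strand), a cytoskeletal protein of mature oligodendrocytes, did not follow the 5 libraries. Its highest value, 24.6 CPM, was in female SCFA 3 dpl replicate 2, the library with the lens transcripts, followed by 16.7 CPM in female SCFA 3 dpl replicate 3. Ermn shares exonic bases with Galnt5 on the opposite strand.

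**Figure D1:**
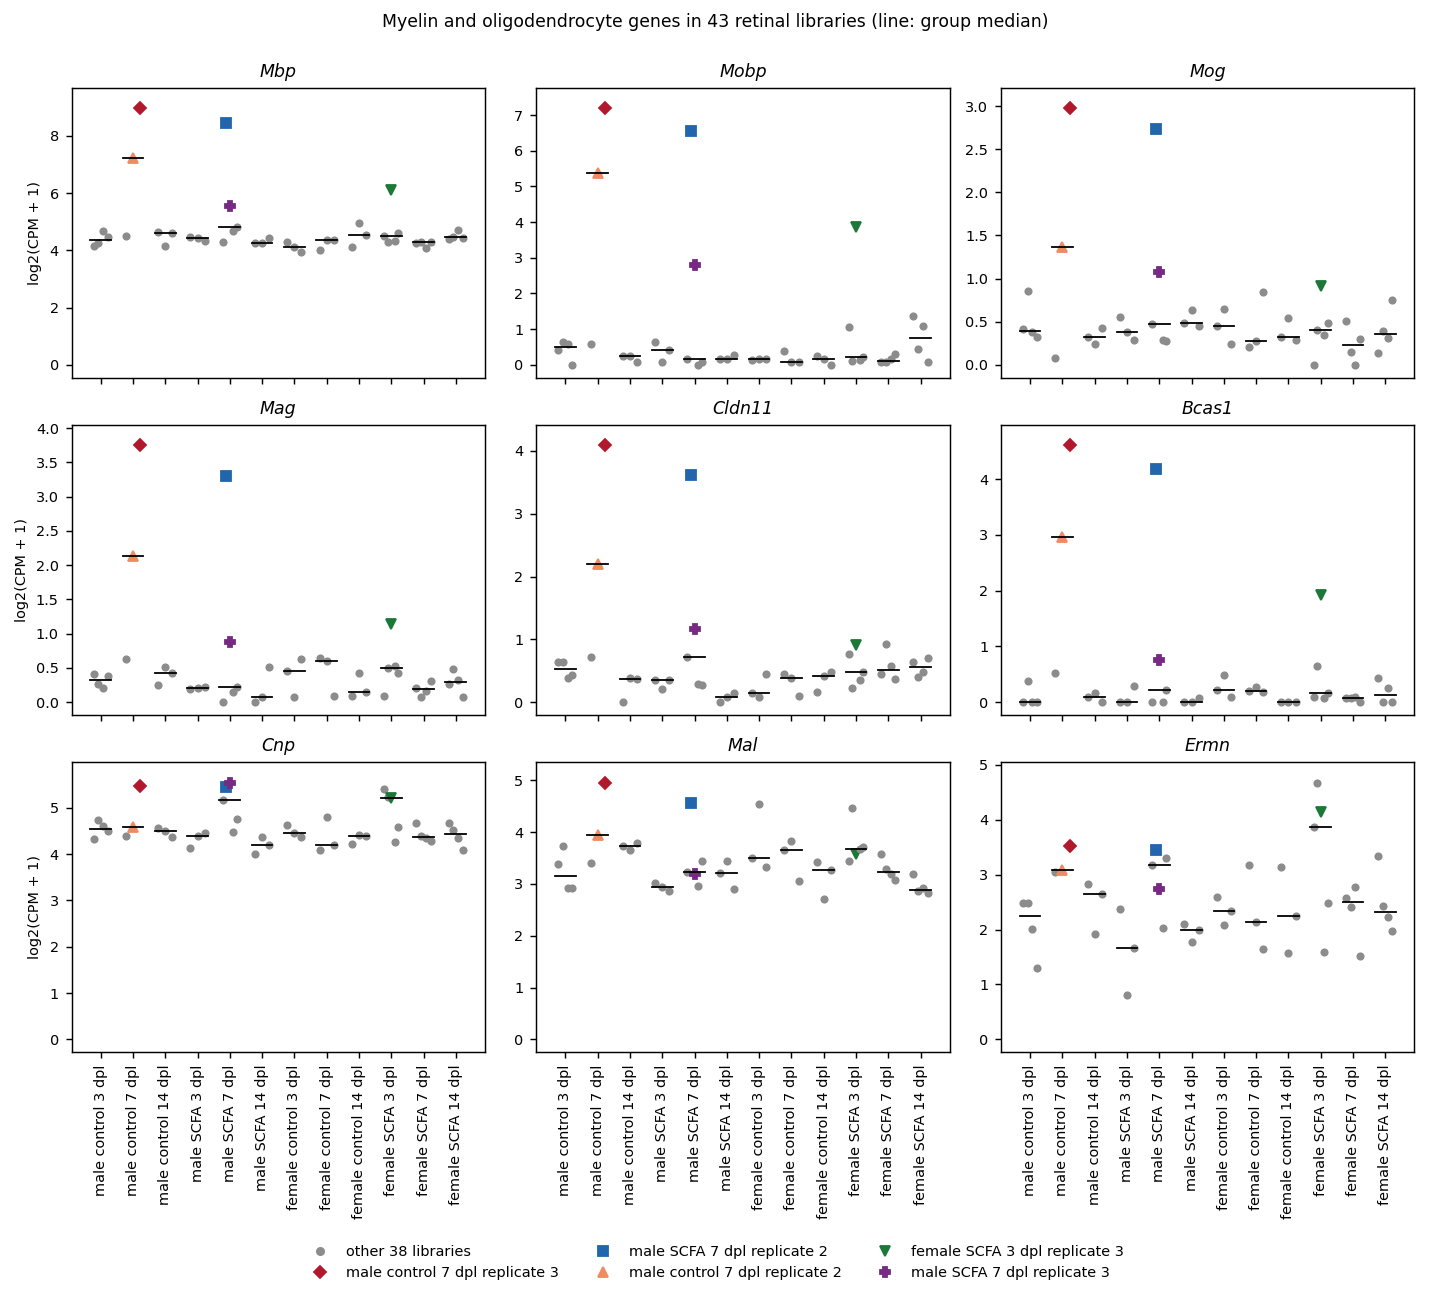
The level of each of the 9 genes, as log2(CPM + 1), in every library by group, with a line at the group median; 5 libraries carry their own symbols and the other 38 are grey. Mbp, Mobp, Mog, Mag and Bcas1 were higher in each of the 5 libraries than in all 38, Cldn11 in 4 of the 5, Cnp in 3, Mal in 2 and Ermn in 0.

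Levels of different genes can be compared only after division by transcript length. Per kilobase of annotated exon, the medians over the 43 libraries were 5.79 CPM for Cnp, 3.38 for Mal, 2.44 for Mbp and 1.20 for Ermn. They were 0.184 for Mog, 0.182 for Cldn11, 0.0575 for Mag, 0.0249 for Mobp and 0.0161 for Bcas1. In the highest library of each gene this order was different, with Mbp at 59.1 CPM per kilobase, Mobp at 21.2, Cnp at 12.5, Mal at 10.8 and Cldn11 at 8.57. Thus Mobp moved from the second lowest place among the 9 to the second highest.

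The promoters of the genes that moved together are shown because a shared rise can be set beside shared sequence. RefSeq (GRCm38.p6) gave an entry for 7 of the 9 genes, all but Mbp and Bcas1. The stretches below are the bases before the first annotated exon for the 4 of them that followed the 5 libraries most closely, 5′ to 3′ along the gene's strand. Capitals mark matches on either strand to CTGGNAC, a motif bound by the oligodendrocyte factor MYRF, and to ACAAAG, a motif of SOX factors such as SOX10.
Mobp (chr9:120149492-120149706, plus strand): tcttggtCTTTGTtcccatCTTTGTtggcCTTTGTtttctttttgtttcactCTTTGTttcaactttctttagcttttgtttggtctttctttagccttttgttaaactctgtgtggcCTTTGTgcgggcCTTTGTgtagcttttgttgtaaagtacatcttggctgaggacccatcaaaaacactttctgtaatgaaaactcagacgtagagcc
Mag (chr7:30914874-30915113, minus strand): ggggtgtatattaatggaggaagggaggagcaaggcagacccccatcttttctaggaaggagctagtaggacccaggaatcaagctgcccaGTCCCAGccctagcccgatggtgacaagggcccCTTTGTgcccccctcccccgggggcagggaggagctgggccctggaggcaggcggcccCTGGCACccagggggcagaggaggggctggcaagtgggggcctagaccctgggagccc
Mog (chr17:37023399-37023648, minus strand): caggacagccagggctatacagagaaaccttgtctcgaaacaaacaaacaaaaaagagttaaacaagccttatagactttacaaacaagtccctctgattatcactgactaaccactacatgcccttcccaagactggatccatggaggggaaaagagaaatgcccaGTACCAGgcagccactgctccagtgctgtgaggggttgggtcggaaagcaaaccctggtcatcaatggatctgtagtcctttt
Cldn11 (chr3:31149670-31149919, plus strand): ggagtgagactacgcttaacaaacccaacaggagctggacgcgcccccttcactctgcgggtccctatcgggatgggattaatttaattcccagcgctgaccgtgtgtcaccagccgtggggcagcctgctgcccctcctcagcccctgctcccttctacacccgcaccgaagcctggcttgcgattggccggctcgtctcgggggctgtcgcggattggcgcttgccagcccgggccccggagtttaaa
Mobp held 6 matches to the SOX motif, Mag 2 to the MYRF motif and 1 to the SOX motif, Mog 1 to the MYRF motif and Cldn11 none. Of further RefSeq entries of Mag, that at chr7:30914923-30915172 also held 2 and 1, and that at chr7:30914322-30914571 held none. Of the other members with an entry, Cnp held 2 and 1, and Mal and Ermn held none. Among 32851 promoter stretches of 250 bases, 16.1% held the MYRF motif and 16.5% the SOX motif. The stretches read here were shorter for Mobp and Cnp (215 bases) and for Mag (240 bases). A match is a description of these letters and says nothing of the factor.

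The proportions of the genes were compared within the 5 libraries. The excess of a gene was taken as its CPM above its median over the 43 libraries, and set against the excess of Mbp in the same library. In the 3 highest libraries the excess of Mobp was 28.4% to 31.2% of that of Mbp, that of Bcas1 4.85% to 5.23% and that of Mag 2.46% to 2.61%. Cldn11 lay at 2.55% to 3.32%, Mal at 3.91% to 4.30% and Mog at 0.987% to 1.62%. Over all 5 libraries the ranges were 23.2% to 31.2% for Mobp, 2.51% to 5.79% for Bcas1, 2.06% to 2.61% for Mag, 1.16% to 3.59% for Cldn11 and 0.987% to 3.15% for Mog, while the excess of Mbp itself ran from 25.2 to 479.9 CPM. Mobp and Mag thus varied least. Mal ran from -4.85% to 4.30%, since it lay below its median in male SCFA 7 dpl replicate 3, Cnp from 1.42% to 97.4% and Ermn from 1.26% to 26.2%.

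Across the 43 libraries Mbp, Mobp, Mog, Mag, Cldn11 and Bcas1 had pairwise Pearson correlations of 0.88 to 0.97 on log2(CPM + 1), over 15 pairs. Spearman correlations of the same pairs were 0.069 to 0.56. Pairs that involved Cnp, Mal or Ermn had Pearson correlations of 0.25 to 0.66, and the median over all 36 pairs was 0.61. The points share library, depth and scaling. Taken as deviations from the group means, the 15 pairs still had correlations of 0.86 to 0.96, so the joint movement lay within groups. The male control 7 dpl libraries whose high values chose the genes enter here, so high correlations follow in part from the choice. Bcas1 and Mag also passed the filter only with the libraries in which they were high. Leaving out the 2 libraries farthest from the median, male control 7 dpl replicate 3 and male SCFA 7 dpl replicate 2, gave 0.44 to 0.92 for the 15 pairs. In the 38 libraries the 15 pairs had correlations of -0.34 to 0.35, with a median of 0.026, so the joint movement rested on the 5 libraries. In the run of 12 columns, which holds none of the 5, the median over the 15 pairs was -0.062.

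**Figure D2:**
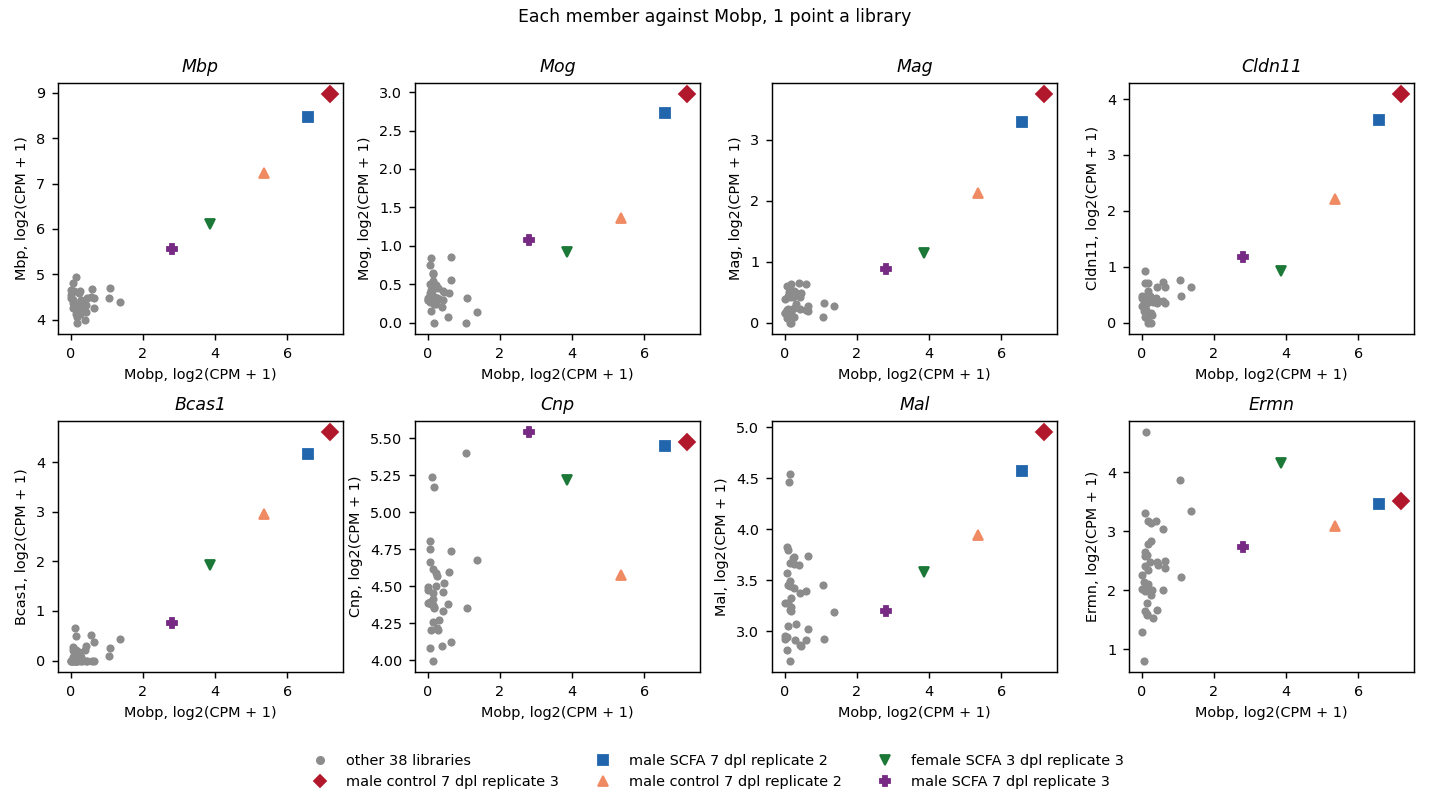
Each other member against Mobp, both as log2(CPM + 1), with 1 point a library. The 5 marked libraries line up for Mbp, Mog, Mag, Cldn11 and Bcas1, and the 38 grey libraries form a cloud near 0 for Mobp, where the 15 pairs of the 6 genes had a median correlation of 0.026.

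The same 5 libraries were then set beside genes outside the list. Of 18188 other genes, 8 had a Pearson correlation above 0.8 with the mean standardised level of the 9 members, while the median gene had -0.00274. Among the 15 most alike were Olig1, Klk6, Gjc3, Apod, Prr18, Nkx6-2, Tmem88b, Ugt8a, Gpr37l1, Esm1, Sap30bpos, Gpr50, Acsbg1 and S100b. Of the 15, 6 stood in the oligodendrocyte lists used here. Olig1, Klk6, Gjc3, Nkx6-2, Sap30bpos and Gpr50 passed the low-count filter only through libraries among the 5. Their likeness to the members follows in part from that filter. Olig1 (0.93), a transcription factor of the oligodendrocyte lineage, had a median of 0 CPM and reached 3.94 CPM in male control 7 dpl replicate 3 and 3.62 CPM in male SCFA 7 dpl replicate 2. Klk6 (0.92), a protease made by mature oligodendrocytes, reached 9.16 and 5.95 CPM in the same 2 libraries and at most 0.218 CPM in the 38.

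Gjc3 (0.92), a connexin of myelinating glia, was at 1.92 and 2.13 CPM in male control 7 dpl replicate 3 and male SCFA 7 dpl replicate 2, and at 0 CPM in male SCFA 7 dpl replicate 3. Ugt8a (0.79), which makes the galactolipids of myelin, was above all 38 libraries in 4 of the 5.

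Lists of the lineage held 34 further genes, of which 26 passed the filter: 13 myelin proteins, 3 enzymes of myelin lipids, 6 transcription factors and 4 genes of oligodendrocyte precursors. At least 3 of the 5 libraries were above all 38 for 7 of the 13 myelin proteins, 1 of the 3 lipid enzymes, 2 of the 6 factors and 1 of the 4 precursor genes. The share of all genes that meet this is not given here, and the lists were chosen with earlier results known. The counts therefore describe these genes and are not a result about the lineage. Olig2, a factor that did not pass the filter, was above all 38 in 4 of the 5 and reached 1.17 CPM. Gpr37 and Tubb4a, which retinas hold at high levels, had medians of 102 and 278 CPM. Gpr37 was above all 38 in none of the 5 libraries, and Tubb4a in 1, female SCFA 3 dpl replicate 3 (428 CPM), with the other 4 at 286 to 309 CPM. Sox10, a factor of oligodendrocytes and Schwann cells, was at 2.66 CPM in male control 7 dpl replicate 3 but at 4.34 CPM in 1 of the 38. Pdgfra, a receptor of oligodendrocyte precursors, lay at 5.79 to 21.7 CPM, and the 5 libraries ran from 7.46 CPM to its highest value. Precursor genes Gpr17 and Neu4 reached at most 0.319 and 0.0992 CPM in any library.

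Markers of other cells were read in the same 5 libraries. The summed Schwann cell list was highest in female SCFA 3 dpl replicate 2 (98.4 CPM), outside the 5. Male SCFA 7 dpl replicates 3 and 2, female SCFA 3 dpl replicate 3 and male control 7 dpl replicates 3 and 2 ranked 3, 5, 4, 8 and 17 of 43 for it, at 33.8 to 39.3 CPM. Astrocyte genes summed to 195, 293, 307, 419 and 369 CPM in male control 7 dpl replicates 2 and 3, male SCFA 7 dpl replicates 2 and 3 and female SCFA 3 dpl replicate 3, respectively, against 138 to 284.9 CPM in the 38. Of the 5, 4 were therefore above all others, and male control 7 dpl replicate 2 ranked 26 of 43. Within that list Gfap lay at 131, 126, 124 and 118 CPM in those 4, but other libraries reached 124 CPM. The 6 astrocyte genes had correlations of -0.040 to 0.72 with the members.

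The 8 genes of lens had correlations of 0.21 to 0.26 with the members, the 8 of pigment epithelium and melanocytes -0.075 to 0.43, and the 4 tested of skeletal muscle 0.14 to 0.15. In those 3 lists none of the 5 libraries held the highest sum. They ranked 6 to 18 of 43 for lens, 4 to 21 for pigment epithelium and melanocytes, and 5 to 36 for muscle. Female SCFA 3 dpl replicate 3 ranked highest of the 5 in each. The 7 ganglion cell genes, whose axons form the optic nerve, summed to 892 to 1146 CPM in the 5 libraries, inside the range of 732 to 1482 CPM of the 38. Male SCFA 7 dpl replicate 3 stood apart in other ways, with the lowest rod sum of all libraries (50258 CPM, against 61554 to 92135 CPM in the 38 and 103785 CPM in male SCFA 7 dpl replicate 2) and the highest Muller glia sum (10737 CPM, against 4669 to 9575 CPM). Microglia genes summed highest in male control 7 dpl replicate 3 (83.9 CPM, against 26.8 to 79.3 CPM in the 38). Whether optic nerve tissue was carried into some pools was not tested, since no library of optic nerve or of retina without the nerve head was among the 43. In bulk RNA, fewer cells of a type and less RNA per cell cannot be told apart.

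**Figure D3:**
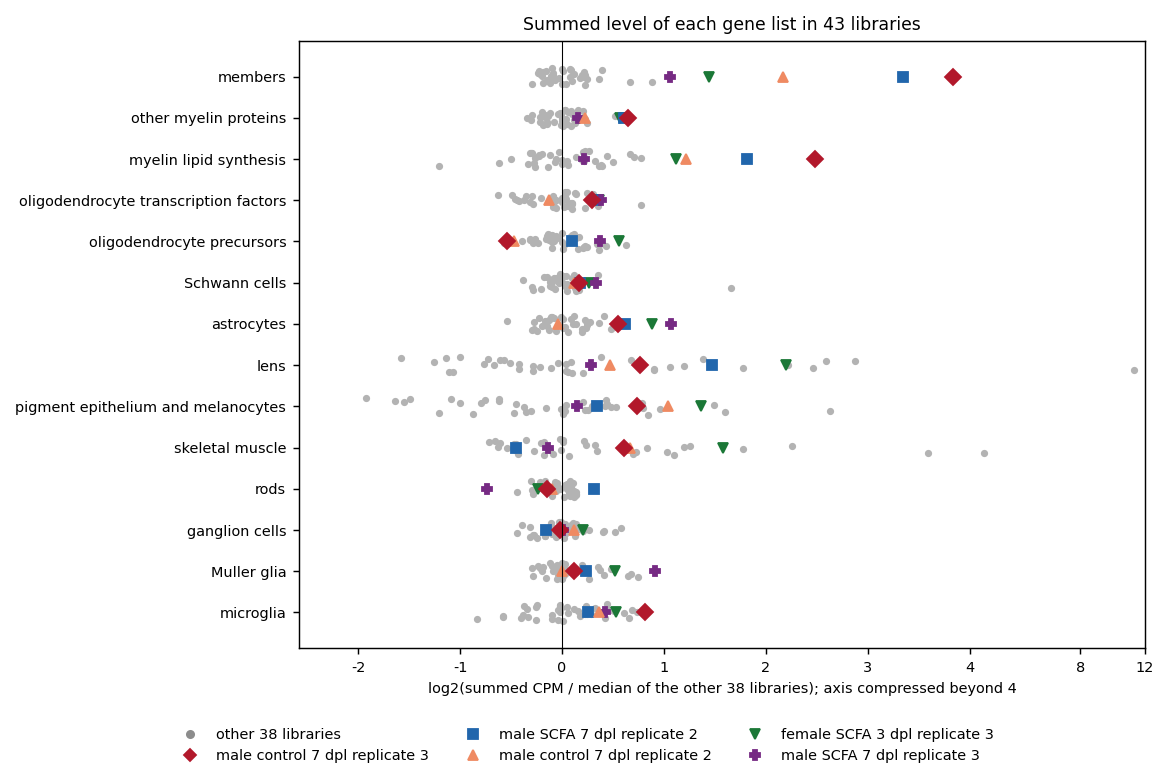
The summed CPM of each gene list in every library, as log2 over its median in the 38 other libraries, with the axis compressed beyond 4. The 5 marked libraries rank 1 to 5 for the members (115 to 789 CPM, against 45.2 to 103 CPM in the 38). The lens, pigment epithelium and muscle lists are highest in other libraries, and female SCFA 3 dpl replicate 3 ranks 6, 4 and 5 for them.

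The 12 groups explained part of the spread. The share of variance of log2(CPM + 1) that lay between groups was 30.5% (Mog) to 49.6% (Cnp) for the members, with a median of 45.9%. The median over all genes tested was 35.4%. The genes were chosen for a difference between the male and female control groups at 7 dpl, so a higher share follows in part from the choice. Without the 5 libraries the medians were 38.1% for the members and 36.9% for all genes. The share also rested on single libraries, at 35.4% without male control 7 dpl replicate 3 and 58.4% without male control 7 dpl replicate 1.

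The male and female control libraries at 7 dpl, from which the genes were listed, differed by 2 male libraries. Mbp was at 21.5, 149 and 501 CPM in the 3 males and at 14.99, 19.6 and 19.7 CPM in the 3 females. Mobp was at 0.489, 40.2 and 145 CPM in males and at 0.0519 to 0.307 CPM in females. Male replicate 1 lay close to the females for both genes, and the males spread over a wider range than the distance from that library to any female. The median log2 difference of the 9 genes, male over female, was 3.63, from 0.51 for Cnp to 8.65 for Mobp. Without the 5 libraries it was 0.36, with 1 male library left, and without male control 7 dpl replicate 3 alone it was 2.24. Over all genes 0.011% were called in that comparison. Without the library labelled female that held Y-linked counts it was 3.69. At 7 dpl in the SCFA groups, Mbp was at 18.6 to 350.0 CPM in 5 males and 15.8 to 18.7 CPM in 4 females.

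DESeq2, run beside edgeR, called a member in 1 of the 11 tested comparisons, 14 over 7 dpl. In the other 5 strata (SCFA at 7 dpl, and both treatments at 3 and 14 dpl) males and females were compared with a test. None of the 9 genes was called, where 0.0495% of all genes were, and none had an unadjusted p under 0.05. Calls needed a log2 fold change beyond 1 in either direction together with an adjusted p below 0.1. Of the members 6 were higher in males, with a median log2 fold change of 0.37 against 0.00 over all genes. That median was -0.22 without the 5 libraries and -0.16 without male SCFA 7 dpl replicate 2. The smallest adjusted p was 0.478, for Ermn, which was lower in males with a log2 fold change of -0.52 (SE 0.26) by edgeR.

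SCFA was compared with control within each sex and day. In males at 7 dpl, the stratum with 4 of the 5 high libraries, Mbp was at 21.5, 149 and 501 CPM in controls and at 18.6, 24.3, 27.0, 45.8 and 350.0 CPM in SCFA libraries. Mobp was at 0.489, 40.2 and 145 CPM in controls and at 0, 0.0537, 0.128, 6.02 and 93.6 CPM with SCFA. Both groups held high and low libraries and overlapped for all 9 genes, where 17.8% of all genes did not overlap. The control libraries here are those whose high values chose the genes, so a lower SCFA side follows in part from the choice, and the fold changes are given as a description. For 8 of the 9 genes the log2 fold change was below 0, with a median of -1.26 against -0.01 over all genes. None was called by edgeR, where 1.47% of all genes were, and 2 had an unadjusted p under 0.05, as did 3991 of the 18197 genes.

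Mal had a log2 fold change of -0.68 (SE 0.33, adjusted p = 0.213 by edgeR) in males at 7 dpl, and Mbp one of -1.26 (SE 0.61, adjusted p = 0.216 by edgeR). Several single libraries moved this comparison. Without male SCFA 7 dpl replicate 2 the median was -2.95, and all members but Cnp and Ermn passed the call thresholds of edgeR on the lower side, 7 of 374 genes called in all. That fit sets the controls that chose the genes against the SCFA libraries left. Bcas1 and Mag had also passed the filter only through high libraries. For both reasons these calls support nothing. Without male control 7 dpl replicate 3 the median was 0.04 and none was called. Without male control 7 dpl replicate 1, Mbp alone was called, with a log2 fold change of -1.80 (adjusted p = 0.0694 by edgeR). Without all 5 libraries the control arm was 1 library, none of the 8 genes still tested was called and their median was -0.16. Single genes then went both ways, with log2 fold changes of -2.94 for Mobp (-1.63 with all libraries), -2.45 for Mag (-1.43 with all libraries) and 2.18 for Mog, where Mag alone had an unadjusted p under 0.05.

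In females at 3 dpl Mobp was at 0.0819, 0.109, 0.170, 1.09 and 13.4 CPM with SCFA and at 0.105, 0.114 and 0.122 CPM in controls. Ermn was at 2.02, 4.60, 13.6, 16.7 and 24.6 CPM with SCFA and at 3.26, 4.07 and 5.07 CPM in controls. For both genes 3 SCFA libraries lay above every control and 1 lay below them all. For Mobp the lowest of those 3, at 0.170 CPM, was at the limit of detection. The Mobp controls and the SCFA library below them lay under that limit. The groups overlapped for all 9 genes, where 7.73% of all genes did not overlap. None of the 9 genes was called, where 0.308% of all genes were, 3 had an unadjusted p under 0.05, as did 2764 of the 18197 genes, and the median log2 fold change was 0.87 against 0.02. Ermn had a log2 fold change of 1.56 (SE 0.58, adjusted p = 0.197 by edgeR), Mobp one of 4.64 (SE 2.17, adjusted p = 0.306) and Cnp one of 0.54 (SE 0.24, adjusted p = 0.277). With the replicate number as a block, edgeR called Ermn (log2 fold change 1.82, adjusted p = 0.0262) and Mobp (5.22, adjusted p = 0.0904). With the run of columns as a block it also called both, Ermn at 1.80 (adjusted p = 0.0221) and Mobp at 5.34 (adjusted p = 0.0930). Without female SCFA 3 dpl replicate 4, Ermn was called at 1.84 (adjusted p = 0.0546 by edgeR), and without replicate 3 the median of the 9 was 0.32. In the SCFA group the lens list was called higher for 4 of 8 genes. Prx, a Schwann cell gene, was called higher with a log2 fold change of 4.26 (SE 0.997, adjusted p = 0.0635 by edgeR). Each of these genes had its highest value in female SCFA 3 dpl replicate 2, the library with the lens transcripts. Prx was at 17.6 CPM there, against a median of 0.354 CPM over all libraries. Calls of these genes without that library are not given here. The part of these genes in the Ermn values was not tested.

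In the remaining 4 strata no member was called by edgeR with all libraries and none had an unadjusted p under 0.05. The shares of all genes called were 0% for males at 3 dpl, females at 7 dpl and females at 14 dpl, and 0.264% for males at 14 dpl. The median log2 fold changes of the members were -0.34, -0.28, 0.16 and -0.58, in that order. In females at 14 dpl Mobp was at 0.0527, 0.357, 1.13 and 1.58 CPM with SCFA and at 0, 0.113 and 0.185 CPM in controls, the widest values outside the 5 libraries. With only the libraries the study used, edgeR called Mobp higher there (log2 fold change 4.03, adjusted p = 0.0669), 1 of 651 genes called. All 3 controls had no count of Bcas1. The groups overlapped for all 9 genes, where 4.01% of all genes did not. In males at 14 dpl Mog, Cnp and Mal did not overlap between SCFA and control, in a stratum where 33.5% of all genes did not. The SCFA libraries were lower in Cnp (14.97 to 19.7 against 19.8 to 22.7 CPM) and Mal, and higher in Mog (0.368 to 0.555 against 0.182 to 0.347 CPM). Cldn11 did not overlap in males at 3 dpl (8.56% of all genes), at 0.151 to 0.282 CPM with SCFA against 0.302 to 0.557 CPM in controls. Bcas1 did not overlap in females at 7 dpl (7.22%), at 0 to 0.0609 CPM with SCFA against 0.133 to 0.208 CPM in controls. These values lie near or below the limit of detection, so no direction is read from them.

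Averaged over the 6 strata, which include the male controls at 7 dpl that chose the genes, SCFA against control gave a median log2 fold change of -0.11 over the members against 0.00 over all genes. None was called by edgeR, where 0.544% of all genes were. Mal was the member with the smallest p. It was lower with SCFA in 6 of 6 strata, with a mean log2 fold change of -0.37 (SE 0.14, adjusted p = 0.0646 by edgeR), so it passed the p threshold and not the fold threshold. At that p threshold alone 12% of all genes were lower. In males the means were 8.72 ± 2.76 CPM (SD, n = 4) in controls and 6.71 ± 0.429 (n = 3) with SCFA at 3 dpl, 17.98 ± 10.7 (n = 3) and 11.2 ± 6.54 (n = 5) at 7 dpl, and 12.3 ± 0.613 (n = 3) and 8.21 ± 1.67 (n = 3) at 14 dpl. In females they were 13.9 ± 7.37 (n = 3) and 13.2 ± 4.53 (n = 5) at 3 dpl, 10.7 ± 3.03 (n = 3) and 8.80 ± 1.48 (n = 4) at 7 dpl, and 7.98 ± 2.17 (n = 3) and 6.75 ± 0.940 (n = 4) at 14 dpl. The ranges of SCFA and control Mal overlapped in 5 of the 6 strata, all but males at 14 dpl.

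Over 54 other settings the log2 fold change of Mal ran from -0.45 to -0.28 and its adjusted p by edgeR or DESeq2 from 0.0123 to 0.174, under 0.1 in 48 of them. Not all are separate fits. Settings that change only a threshold reuse the main fit, and the library with Y-linked counts is counted again among the single libraries left out. It was 0.174 without male control 7 dpl replicate 3, 0.152 without female control 3 dpl replicate 2, 0.106 without the library labelled female with Y-linked counts and 0.102 without male SCFA 14 dpl replicate 3 (edgeR). Without the 5 libraries Mal had a log2 fold change of -0.29 (adjusted p = 0.173 by edgeR). Without male SCFA 7 dpl replicate 2, Mag was called lower over the strata, with a log2 fold change of -1.06 (adjusted p = 0.0678 by edgeR). Mag had passed the filter only through high libraries, so this call supports nothing. No other member passed the adjusted p threshold in this comparison with all libraries.

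**Figure D4:**
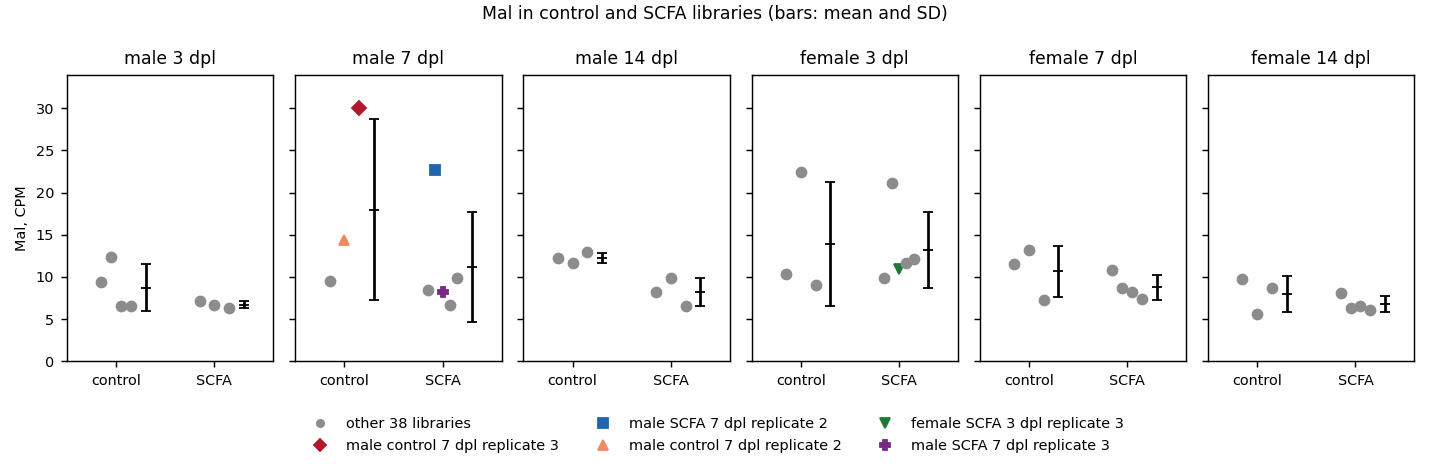
Mal in CPM in each control and SCFA library by sex and day, with the mean and SD of each group as bars. The SCFA mean lies below the control mean in all 6 strata, and the 2 highest Mal values at 7 dpl in males, 30.0 and 22.7 CPM, belong to 1 library of each treatment.

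Days were compared over both sexes and treatments. The 7 dpl means hold the male control libraries whose high values chose the genes, so higher values at 7 dpl than at 3 or 14 dpl follow in part from the choice, and the values are a description. From 3 to 7 dpl all 9 genes had a positive log2 fold change, with a median of 1.26 against 0.01 over all genes. None was called by edgeR, where 0% of all genes were, and 3 had an unadjusted p under 0.05, against 1262 of 18197 genes. Cldn11 had a log2 fold change of 2.01 (SE 0.53, adjusted p = 0.65 by edgeR) and Mbp one of 1.26 (SE 0.33, adjusted p = 0.65 by edgeR). From 7 to 14 dpl all 9 had a negative one, with a median of -1.26 against -0.01. None was called by edgeR, where 0% of all genes were, and 8 had an unadjusted p under 0.05, against 1384 of 18197 genes. Cldn11 had a log2 fold change of -2.61 (SE 0.59, adjusted p = 0.18 by edgeR). DESeq2 called 9 genes in all, among them Cldn11, Mobp and Bcas1, lower at 14 than at 7 dpl with adjusted p-values of 0.00476, 0.0911 and 0.0935. These calls rest on the values that chose the genes and, for Bcas1, that let it pass the filter. The comparisons share the 7 dpl libraries, 4 of which are among the 5. Without the 5 libraries the medians were -0.08 from 3 to 7 dpl and -0.12 from 7 to 14 dpl. From 3 to 14 dpl, where only 1 of the 5 enters, the median was -0.24 against 0.01, and no member was called by edgeR or had an unadjusted p under 0.05, where 0.198% of all genes were called.

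**Figure D5:**
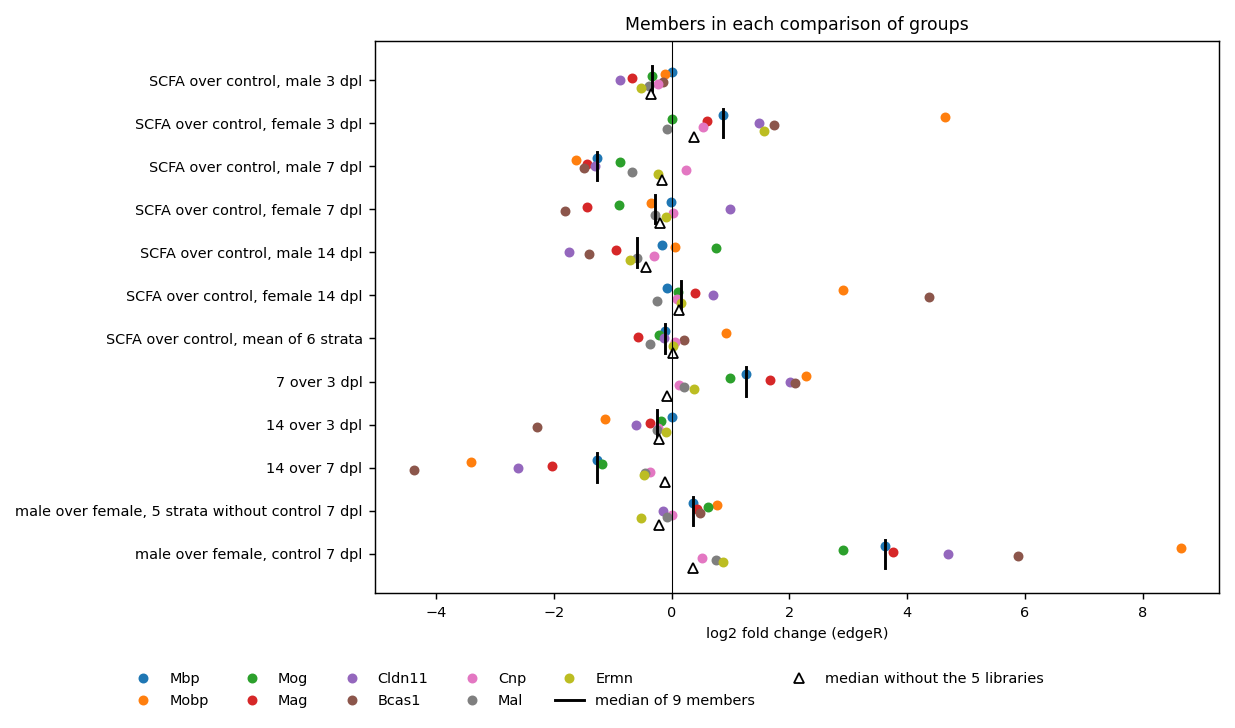
The edgeR log2 fold change of each of the 9 genes in each comparison, with the median of the 9 as a bar and the median without the 5 libraries as an open triangle. The bars for males at 7 dpl (-1.26), 7 over 3 dpl (1.26), 14 over 7 dpl (-1.26) and male over female controls at 7 dpl (3.63) move to -0.16, -0.08, -0.12 and 0.36 without those libraries.

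The wider lineage lists gave 1 call in the 11 comparisons. Gal3st1, the sulfotransferase that makes sulfatide of myelin, was called lower with SCFA in males at 7 dpl, where 1.47% of all genes were called. Its log2 fold change was -1.52 (SE 0.56, adjusted p = 0.0922 by edgeR). The controls there are those whose high values chose genes of this kind, so a lower SCFA side follows in part from the choice. It was at 0.381, 0.847 and 2.13 CPM in controls and at 0.128, 0.397, 0.415, 0.483 and 0.500 CPM with SCFA, so 1 control lay inside the SCFA range. Gal3st1 was highest in male control 7 dpl replicate 3, the library highest in the members, and it was not called without that library or without all 5. The other 25 tested genes of these lists were not called in any of the 11 comparisons by edgeR. By edgeR no member was called for a difference between the SCFA responses of males and females at 3, 7 or 14 dpl, where 0% of all genes were called, which does not show that the sexes responded alike. Ermn and Cnp at 3 dpl had an unadjusted p under 0.05 there, and the smallest adjusted p was 0.427, for Ermn (log2 difference -2.08, SE 0.83, edgeR).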

How the data were processed

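Retinal RNA of 43 libraries was sequenced by the authors, and the deposited file holds raw read counts per Ensembl gene. The submitters' processing notes name the build mm10 and DESeq2. The aligner, the counter and its strand setting are not given in the sources used here. Groups were read from the sample titles, since the treatment label reads control throughout. The members and gene lists were chosen with earlier results of these data known.

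Counts were fitted in 1 model of 12 group means with edgeR 4.0.16 in R 4.3.3 (TMM scaling, filterByExpr, quasi-likelihood test). P-values were adjusted by Benjamini-Hochberg over the 18197 genes that passed. A standard error is the log2 fold change over the root of its F statistic. CPM values use the TMM-scaled library size, and correlations use log2(CPM + 1). DESeq2 1.42.0 and other settings were run as alternatives, together with each library left out in turn. On simulated counts for males at 7 dpl (18197 genes, 200 changed), edgeR recovered 96% of 4-fold and 98% of 6-fold changes with 6 false calls. The changed genes had means above 1 CPM and the same mean in every other group. These rates therefore do not measure how well changes would be found in genes as low in most libraries as Mobp or Bcas1. Named genes were the members, the 15 genes most correlated with their mean standardised level, genes of the cell type lists (those that passed a test, the best and least correlated and up to 6 others per list), and the genes that check tissue and sex labels. Gene coordinates come from GENCODE M21 on GRCm38, which held 54409 of the 54532 identifiers. Nothing beyond the pooling states how replicates were kept apart, so p-values measure the spread between these pools. Depth sets a limit of detection only for counting error. Some listed genes are not reported here.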

Additional observations from a re-analysis of the deposited data

Results flagged for a closer look

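The members were searched for single libraries far from the rest of their group in the 5 groups of 4 or 5 libraries, by Dixon's ratio of the gap to the range. Of 45 gene and group pairs 14 stood out. The nominal rate of 1 in 20 holds for independent, normally distributed values. These genes rise together in single libraries and some lie near 0, so the 14 cannot be set against that rate. The share over all genes is not given here. Male SCFA 7 dpl replicate 2 was far above its group in 7 genes, with 350.0 CPM of Mbp, 93.6 of Mobp, 5.66 of Mog, 8.83 of Mag, 22.7 of Mal, 11.3 of Cldn11 and 17.0 of Bcas1. Female SCFA 3 dpl replicate 3 was far above its group in 3 genes, with 67.8 CPM of Mbp, 13.4 of Mobp and 2.79 of Bcas1. Male control 3 dpl replicate 2 was highest in Mog (0.810 CPM) and in Bcas1 (0.304 CPM), the latter against 0 in the next library. Mal was highest at 21.1 CPM in female SCFA 3 dpl replicate 2, the library with lens transcripts. Bcas1 was lowest, at 0 CPM, in female SCFA 7 dpl replicate 4, against 0.0528 CPM in the next library, a difference within counting error. Male control 7 dpl, which holds the library with the highest Mbp, has 3 libraries and was not searched.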

How the results depend on the processing

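The number of members called was recomputed 131 times under other settings and changed in 7. In females at 3 dpl, where 56 genes were called without a block, it was 2 (Mobp and Ermn) of 379 genes called with a replicate block. With the run of columns as a block it was 2 of 381. In females at 14 dpl it was 1 (Mobp) of 651 with the libraries the study used. Averaged over the strata it was 1 (Mal) of 4427 with no threshold on the fold change. From 7 to 14 dpl it was 3 of 9 with DESeq2, 1 (Cldn11) of 2 with no low-count filter and 1 (Cldn11) of 4 with the replicate block. Same-numbered libraries of different groups had a mean correlation of deviations of 0.0727 over 209 pairs, 83 of them over 0.1. The range was -0.669 to 0.672, and pairs of different numbers had a mean of -0.0231. On these values the numbers were not taken to pair samples, and the replicate block changed no other count. Leaving out single libraries gave 473 counts, of which 5 changed. They ran from 0 to 7 for males at 7 dpl, from 0 to 1 for females at 3 dpl, the mean over strata and 14 over 7 dpl (1 without male SCFA 7 dpl replicate 4), and stayed at 0 in the other 7 comparisons. The median difference of male and female controls at 7 dpl ran from 2.24 to 4.17, and the share of variance between groups from 35.4% to 58.4%. Without the 5 libraries, an alternative chosen after seeing the data that leaves male control 7 dpl with 1 library assumed to vary like the others, these were 0.36 and 38.1%. The median pairwise correlation was then 0.048, against 0.33 by Spearman and -0.018 in the second run of columns. Causes were not tested. Mobp, Mag and Bcas1 were at or below 3 counts in 25, 19 and 30 libraries, so their fitted fold changes there are imprecise.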
